A study of Mus musculus with 9 samples.

Results

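In all, 10 genes of MHC class I antigen presentation were followed in the MBH (mediobasal hypothalamus), the region around the arcuate nucleus at the base of the brain. They were chosen by symbol as H2-K1, H2-D1, H2-T23, B2m, Tap1, Tap2, Tapbp, Nlrc5, Psmb8 and Psmb9, and all 10 were found among the 35975 genes quantified, with 68 of the 116728 annotated transcripts. RNAseq was performed on wild-type C57Bl/6 male offspring at P21, the age of weaning. Dams of the CTRL group drank plain water, and dams of the Emul group drank water to which 1% carboxymethylcellulose (CMC) and 1% polysorbate 80 (P80), a pair of dietary emulsifiers, had been added, before and during pregnancy and through lactation. The CTRL group had 4 libraries, from 4 litters, and the Emul group 5, from 5 litters. Both groups were of the same strain and sex. The emulsifiers were given to the dams, and direct exposure of the pups before weaning cannot be told apart from exposure through the dam. How many pups stand behind a library is not given in the sources used here.

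MHC class I molecules display short peptides from proteins made inside the cell, so that cytotoxic T cells and natural killer cells can inspect them. A heavy chain pairs with the light chain beta-2 microglobulin and receives its peptide in the endoplasmic reticulum, where a transporter and a set of chaperones deliver and fit the peptides that the proteasome has cut. In the healthy brain microglia and endothelial cells carry much of the class I protein, neurons carry little of it but use it during synapse development, and interferons raise most genes of the pathway.

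The libraries held between 28245360 estimated counts (CTRL 3) and 46067534 (Emul 4), so counting error was small for the abundant members. Genes of the MBH were present, since of 10 genes of the arcuate and ventromedial nuclei 9 passed the filter on low counts. The summed level of the 10 was 527 to 569 TPM (a level corrected for library size and transcript length) in CTRL and 463 to 700.1 TPM in Emul. The highest value was in Emul 5, with the other Emul libraries at 463 to 537 TPM. Genes of neighbouring regions were not examined, so the limits of the dissection are not shown. Among genes of other cell types, all 6 oligodendrocyte genes tested had a log2 fold change under 0 (median -0.28). At an unadjusted p-value under 0.05, 5 of them were lower, against 8.99% of all genes. Mbp, which encodes a myelin protein and was 1 of these 5, had a log2 fold change of -0.29 with a standard error of 0.088. The summed level of the 6 was 12282 to 15478 TPM in CTRL and 9200 to 12860 TPM in Emul. Of 6 astrocyte genes 1 was lower at that threshold (8.99% of all genes), Gfap, which encodes a filament protein (-0.40 ± 0.088, SE). The astrocyte median was -0.050, with 1 of the 6 above 0. Their summed level was 1167 to 1249 TPM in CTRL and 969 to 1120 TPM in Emul, without overlap. The 5 oligodendrocyte precursor genes summed to 363 to 424 TPM in CTRL and 317 to 377 TPM in Emul. On the TPM scale the median of all genes was itself at -0.099 (log2). Of 8 neuronal genes (median 0.11), 5 were higher and 1 lower at the same unadjusted threshold, against 6.84% and 8.99% of all genes. Stmn2 was at 0.17 ± 0.043 (SE) and the inhibitory transporter Slc32a1 at -0.27 ± 0.12 (SE). The summed level of the neuronal list overlapped (2631 to 2805 TPM in CTRL and 2642 to 2774 TPM in Emul). None of these passed an adjusted p-value under 0.05 in limma. The part of cell makeup in the results below was not tested, and in bulk tissue fewer cells of a type and less RNA per cell cannot be told apart.

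The promoters of the light chain, of both classical heavy chains and of Tap1 are shown because the comparisons below turn on these genes and because classical work places their shared control elements in this stretch. Each window runs from 250 bases before to 50 bases after the RefSeq start site on the GRCm38.p6 build, on the strand of the gene. The windows are chr2:122147437-122147736 (plus strand) for B2m, chr17:34000298-34000597 (minus strand) for H2-K1, chr17:35262844-35263143 (plus strand) for H2-D1 and chr17:34187306-34187605 (plus strand) for Tap1. Capitals mark matches, on either strand, to GAAANNGAA (the core of the interferon-stimulated response element, ISRE), GGGATTCC (a kB site), TGACG (the core of a cAMP response element, CRE, as in the class I X2 box) and ATTGG (the Y box bound by NF-Y). None of the marked matches overlap each other.
B2m: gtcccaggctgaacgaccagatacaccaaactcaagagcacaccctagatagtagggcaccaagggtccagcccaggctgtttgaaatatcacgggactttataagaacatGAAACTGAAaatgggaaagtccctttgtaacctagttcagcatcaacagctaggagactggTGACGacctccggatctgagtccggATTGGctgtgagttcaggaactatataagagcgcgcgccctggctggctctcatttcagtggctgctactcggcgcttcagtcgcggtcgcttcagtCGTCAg
H2-K1: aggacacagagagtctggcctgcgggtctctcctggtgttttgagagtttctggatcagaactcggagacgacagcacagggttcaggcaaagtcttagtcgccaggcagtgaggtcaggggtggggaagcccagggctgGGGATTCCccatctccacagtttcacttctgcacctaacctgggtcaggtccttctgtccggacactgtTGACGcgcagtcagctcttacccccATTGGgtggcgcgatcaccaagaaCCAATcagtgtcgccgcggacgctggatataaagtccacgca
H2-D1: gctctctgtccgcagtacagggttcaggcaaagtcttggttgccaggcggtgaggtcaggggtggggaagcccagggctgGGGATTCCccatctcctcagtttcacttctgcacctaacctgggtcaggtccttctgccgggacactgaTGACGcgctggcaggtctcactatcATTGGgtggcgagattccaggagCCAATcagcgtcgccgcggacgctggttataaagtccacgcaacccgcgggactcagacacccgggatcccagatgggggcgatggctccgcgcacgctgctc
Tap1: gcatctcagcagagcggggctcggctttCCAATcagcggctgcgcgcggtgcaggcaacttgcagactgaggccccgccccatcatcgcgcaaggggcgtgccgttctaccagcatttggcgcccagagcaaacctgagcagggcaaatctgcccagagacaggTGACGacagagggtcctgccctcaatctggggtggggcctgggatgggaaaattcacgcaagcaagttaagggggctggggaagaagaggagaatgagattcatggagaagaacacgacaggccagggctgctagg

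RefSeq windows were found for 8 of the 10 genes, all but Tap2 and Nlrc5. The Y box letters were in 7 of the 8 windows, against 37.9% of the 27025 genes with a window, and the CRE core was in 5 of 8, against 21% of genes. The kB letters, which spell a single form of the kB site, were in H2-K1 and H2-D1, and 1.07% of genes had them. The exact letters of the ISRE core were in B2m and H2-T23, against 8.57% of genes. A further motif, TTCNNNGAA (GAS, the gamma-activated site), was in Psmb8 alone, against 8.47% of genes. In B2m, H2-K1 and H2-D1 the Y box began 25 bases after the CRE core, an arrangement present in 26 of the 27025 genes (0.0962%) and looked for after the matches had been seen. In H2-K1 and H2-D1 the kB site also stood 69 bases before the CRE core, so the control stretch was alike in both genes although it lies closer to the RefSeq start site in H2-K1. For H2-K1 alone the window was picked so that its start site is the GENCODE start of the gene. The distance to the start site therefore depends on the annotated start that was used. Tap1 and Psmb9 lie head to head, and their windows shared 275 bases, so the same CRE core and Y box letters serve as matches for both. These are matches of the stated letters alone, so variants of an element were not counted. A window without a match may therefore still hold such an element. Binding was not measured.

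**Figure D1:**
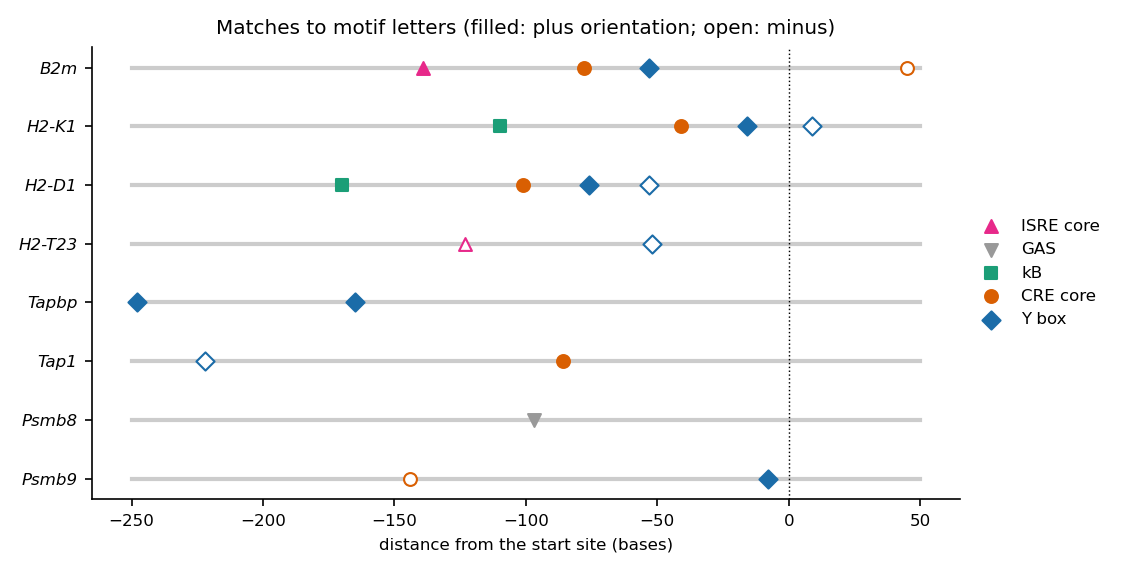
Matches to the motif letters by distance from the start site (bases), for the 8 genes with a RefSeq window. Filled marks read in the orientation of the gene and open marks in the opposite one. Variants of the letters were not searched, so a missing mark does not mean a missing element. The CRE core and the Y box stand 25 bases apart in B2m, H2-K1 and H2-D1.

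The question put to these genes was whether maternal emulsifiers went with a different level of the class I machinery in the offspring MBH. B2m, the light chain shared by all class I molecules, was the member that stood out, with a level 1.15 times that of CTRL. The heavy chain H2-D1 came next, at a log2 fold change of 0.12 ± 0.064 (SE), with an unadjusted p-value in limma of 0.091. Differences were smaller than their standard errors in the heavy chains H2-K1 and H2-T23 and in the transporter genes Tap1 and Tap2. The same held for the loading factor Tapbp, the transactivator Nlrc5 and the immunoproteasome subunit Psmb8. Of the 9 members that passed the filter, 1 was higher at an unadjusted p-value under 0.05, against 6.84% of the 15340 genes tested, and 0 were lower, against 8.99%. With either direction counted, 15.8% of all genes were under that threshold, so 1 of 9 members is no more than the background. At an adjusted p-value under 0.05 in limma the count was 0 of 9 (0.117% of all genes), and 0 passed an unadjusted p-value under 0.05 with a fold change above 1.5, the cutoff of the study's methods (0.469% of all genes). The log2 fold change was above 0 in 6 of the 9, against 50.8% of genes, with a median of 0.056. In none of the 9 were all Emul libraries above all CTRL libraries (2.8% of genes) or all below them (3.8%).

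B2m encodes the light chain, beta-2 microglobulin, without which heavy chains do not reach the cell surface. It lies at chr2:122147686-122153083 on the plus strand (mm10), and 1 annotated transcript carried all its counts. On the log2 CPM scale (counts relative to library sizes scaled by TMM), its level was 5.52, 5.40, 5.31 and 5.65 in CTRL 1 to 4 and 5.71, 5.82, 5.60, 5.63 and 5.65 in Emul 1 to 5. All Emul libraries were above CTRL 1, 2 and 3, and the groups met only at CTRL 4, which lay above Emul 3 and 4. The log2 fold change was 0.20 with a standard error of 0.066 (95% confidence interval 0.061 to 0.35). The unadjusted p-value in limma was 0.0090 and the adjusted p-value 0.18, so B2m did not pass the test over all genes. The exact permutation test on the single gene gave p = 0.032 (two-sided). Without CTRL 4 the groups no longer overlapped and the log2 fold change was 0.27, and without CTRL 3 it was 0.16, the ends of its range with each library left out. On the TPM scale, on which the median gene was itself 0.099 lower in Emul, it was 0.11.

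H2-D1 and H2-K1 encode the classical heavy chains of this strain, which present peptides to cytotoxic T cells. H2-D1 (chr17:35262730-35267499, plus strand) had log2 CPM values of 5.10, 5.04, 5.00 and 5.25 in CTRL 1 to 4. In Emul 1 to 5 they were 5.30, 5.31, 5.03, 5.22 and 5.24. Emul 1 and 2 exceeded every CTRL library, whereas Emul 3, 4 and 5 lay within the CTRL values. The log2 fold change was 0.12 ± 0.064 (SE), with an adjusted p-value in limma of 0.40 and an exact permutation p = 0.15. Its unadjusted p-value was 0.091, and it went under 0.05 without CTRL 4 (0.17 on the log2 scale) or without Emul 3 (0.16). On the TPM scale the log2 fold change was 0.030.

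H2-K1 (chr17:33996017-34000347, minus strand) had log2 CPM values of 4.04, 3.87, 3.78 and 4.25 in CTRL 1 to 4. The Emul values were, from replicate 1 to 5, 3.88, 4.12, 3.68, 3.94 and 3.97. The highest value was in CTRL 4 and the lowest in Emul 3, and the groups overlapped widely. The log2 fold change was -0.085 ± 0.10 (SE) with a 95% confidence interval of -0.30 to 0.14, and without CTRL 4 it was 0.013. H2-T23 (chr17:36029773-36032855, minus strand) encodes the non-classical heavy chain Qa-1, which shows leader peptides of other class I chains to natural killer cell receptors. It ran from 2.97 to 3.43 log2 CPM in CTRL and from 3.12 to 3.45 in Emul, with a log2 fold change of 0.061 ± 0.10 (SE). Its groups overlapped as well.

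**Figure D2:**
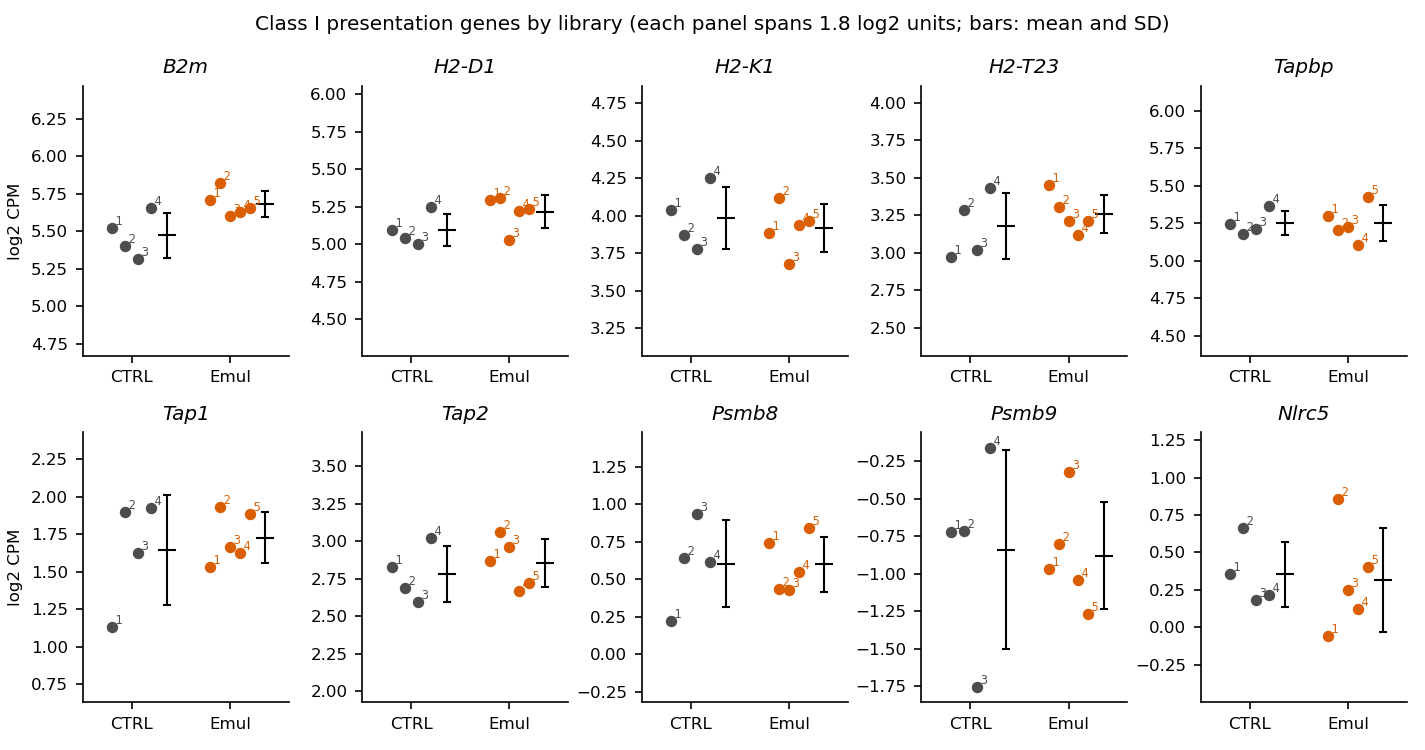
Log2 CPM of each of the 10 genes in every library, with the replicate number beside each point and the mean and SD of each group beside the points. All panels span the same 1.8 log2 units. B2m is the gene whose Emul libraries lie above CTRL 1, 2 and 3.

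Heavy chains resemble each other, so reads can be split between them. Of the distinct 31-base stretches in H2-K1 transcripts, 22.8% also occurred in another gene, with H2-D1 sharing the most (11.1%). For H2-D1 the share was 26.9%, of which 13.8% with H2-K1, and for H2-T23 it was 25.3%, with the pseudogene H2-T-ps sharing the most. The levels of these 3 genes are therefore uncertain to the extent that kallisto divided such reads. B2m and Nlrc5 shared no stretch of that length with any other gene.

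The balance of light chain to heavy chains was taken within each library as the ratio of TPM values, which no scaling of whole libraries can move. B2m over the sum of H2-K1, H2-D1 and H2-T23 was 1.59, 1.51, 1.54 and 1.48 in CTRL 1 to 4. In Emul 1 to 5 it was 1.68, 1.76, 1.83, 1.72 and 1.65. Every Emul library exceeded every CTRL library, with means of 1.53 ± 0.047 (SD, n = 4) and 1.73 ± 0.069 (SD, n = 5). The groups were also apart with protein-coding transcripts alone (1.88 to 1.98 in CTRL and 2.02 to 2.28 in Emul) and with CPM from the authors' table (0.753 to 0.791 and 0.820 to 0.912). This ratio was chosen with the values in view, so it is a description and was given no test.

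Most of that separation was against H2-K1. B2m over H2-K1 was 3.56 to 4.24 in CTRL and 4.42 to 5.31 in Emul, without overlap. B2m over H2-D1 overlapped, at 3.16 to 3.41 and 3.31 to 3.71, and so did B2m over H2-T23, at 9.05 to 12.7 and 10.8 to 11.98. H2-D1 over H2-K1 averaged 1.21 ± 0.14 for CTRL (SD, n = 4) and 1.41 ± 0.10 for Emul (SD, n = 5), with 2 CTRL libraries above the lowest Emul library. In every library H2-D1 was thus the more abundant of the classical chains.

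**Figure D3:**
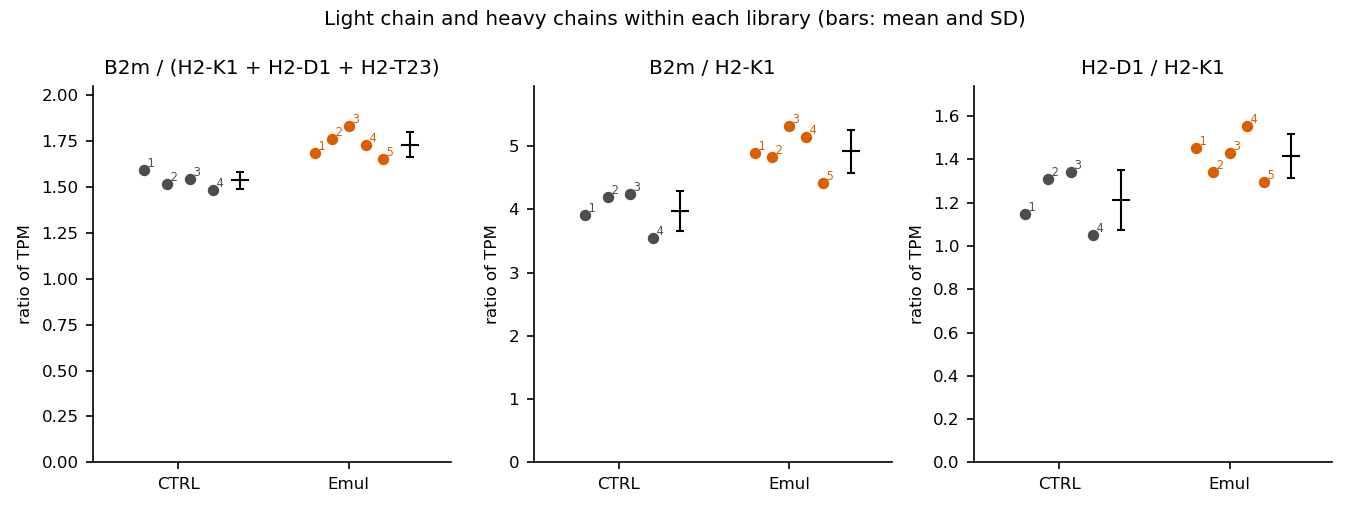
Ratios of TPM within each library, for B2m over the 3 heavy chains together, B2m over H2-K1, and H2-D1 over H2-K1, with the mean and SD of each group. The groups do not overlap in the first and second panels and overlap in the third.

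The transporter and its bridge to the heavy chain did not differ beyond their error. Tap1 and Tap2 encode both chains of the peptide transporter, and Tapbp encodes tapasin, which holds the heavy chain at the transporter. Tap1 (chr17:34187553-34197225, plus strand) had log2 CPM values of 1.13, 1.90, 1.63 and 1.92 in CTRL 1 to 4. In Emul 1 to 5 they were 1.53, 1.93, 1.67, 1.62 and 1.89. CTRL 1 was the lowest of all, and the other libraries of both groups were intermingled. The log2 fold change was 0.069 ± 0.16 (SE), and it turned to -0.11 without CTRL 1 and to -0.15 with protein-coding transcripts alone. Tap2 (chr17:34203527-34216321, plus strand) was at 2.59 to 3.02 log2 CPM in CTRL and 2.67 to 3.06 in Emul, with a log2 fold change of 0.056 ± 0.11 (SE) that turned to -0.12 with protein-coding transcripts alone. Tapbp (chr17:33915899-33929292, plus strand) had the smallest standard error of the members, at 5.18 to 5.37 log2 CPM in CTRL and 5.11 to 5.43 in Emul. Its log2 fold change of -0.0072 ± 0.062 (SE) had a 95% confidence interval of -0.14 to 0.13.

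Nlrc5 and the immunoproteasome subunits were near the limit of detection. Nlrc5 (chr8:94434356-94527272, plus strand) encodes the transactivator that switches on class I promoters, and had 31 to 73 estimated counts per library. Its level was 0.19 to 0.66 log2 CPM in CTRL and -0.057 to 0.86 in Emul, and its log2 fold change of -0.053 had a 95% confidence interval of -0.48 to 0.38. Psmb8 and Psmb9 encode interferon-inducible catalytic subunits that replace Psmb5 and Psmb6 in the immunoproteasome. Psmb8 (chr17:34197721-34201454, plus strand) had 42.8 to 64.0 counts per library, 0.23 to 0.93 log2 CPM in CTRL and 0.43 to 0.84 in Emul, and a log2 fold change of 0.0061 ± 0.16 (SE). Psmb9 (chr17:34181987-34187764, minus strand) had 7 to 36.4 counts per library and did not pass the filter. Its level was -1.75 to -0.16 log2 CPM in CTRL and -1.27 to -0.32 in Emul, with an exact permutation p = 0.92. The difference seen in B2m lay within the confidence intervals of Nlrc5 and Psmb8, so one of that size was not detectable there. It also lay within those of H2-D1 (-0.022 to 0.26), H2-T23 (-0.16 to 0.28), Tap1 (-0.29 to 0.43) and Tap2 (-0.18 to 0.29). These members may therefore share a difference of that size. The intervals of H2-K1 and Tapbp ended below it, at 0.14 and 0.13.

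**Figure D4:**
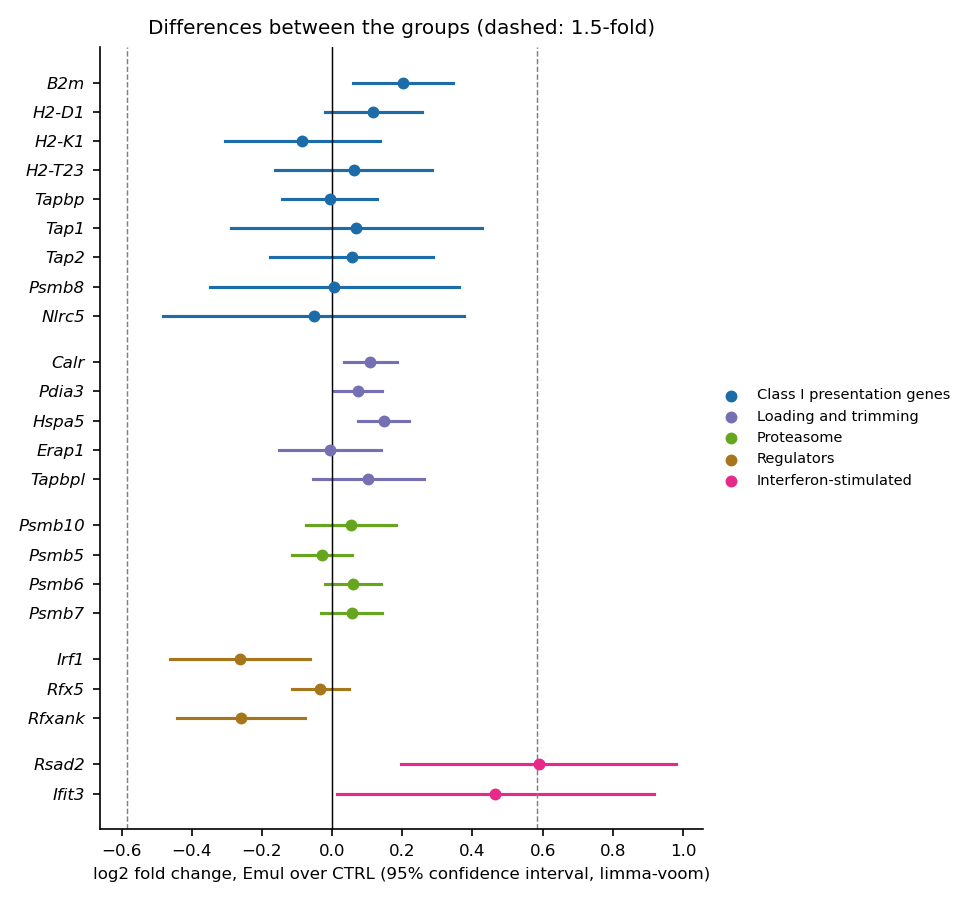
Log2 fold change of Emul over CTRL with its 95% confidence interval (limma-voom) for the 9 members tested and for named genes of loading, the proteasome, regulation and the interferon response. Dashed lines mark a fold change of 1.5. B2m has the only member interval that lies wholly above 0, and no member reaches a dashed line.

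Levels were compared between genes in TPM. The order by the median over the 9 libraries was B2m (131 TPM), Tapbp (41.3), H2-D1 (38.5), H2-K1 (27.98), H2-T23 (11.4), Tap2 (5.76), Psmb8 (2.77), Tap1 (2.15), Nlrc5 (0.825) and Psmb9 (0.802). B2m lay between 115 and 140 TPM, above every value of every other member. Tapbp and H2-D1 overlapped (36.5 to 47.4 and 34.2 to 40.3 TPM), H2-K1 reached into both with 23.9 to 38.3 TPM, and H2-T23 was below all of these with 9.84 to 13.2 TPM. Tap2 stood apart at 4.60 to 6.81 TPM. Psmb8 and Tap1 overlapped, as did Nlrc5 and Psmb9, so the order within these pairs is not fixed.

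At the RNA level Psmb8 and Psmb9 made up a small share beside the subunits they replace, whereas Psmb10 did not. Psmb8 was 1.39% to 2.40% of the summed TPM of Psmb8 and Psmb5 over all libraries. Psmb9 was 0.196% to 0.749% of Psmb9 and Psmb6. Psmb10, the third inducible subunit, was 20.5% to 24.8% of Psmb10 and Psmb7, far above the other pairs in every library. The groups overlapped in all 3 shares.

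Part of these levels was assigned to transcripts annotated as not encoding the protein. The shares are estimates, because kallisto divided short reads among overlapping transcripts. The part of unspliced RNA in them was not tested. Of the counts of Tap2, 74.8% were on the retained-intron transcript Tap2-202 and 24.2% on the coding Tap2-201. In Psmb8, 66.02% of the counts were on 4 retained-intron transcripts, and by library this share ran from 50.5% to 79.3%. In Tap1 the retained-intron share was 41.9% and in H2-T23 29.8%. H2-D1, at 99.4%, and B2m, at 100%, were almost wholly coding. Thus the TPM order places Tap2 and Psmb8 above what their coding transcripts alone would give. With coding transcripts alone Psmb8 did not pass the filter and 8 members were tested.

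**Figure D5:**
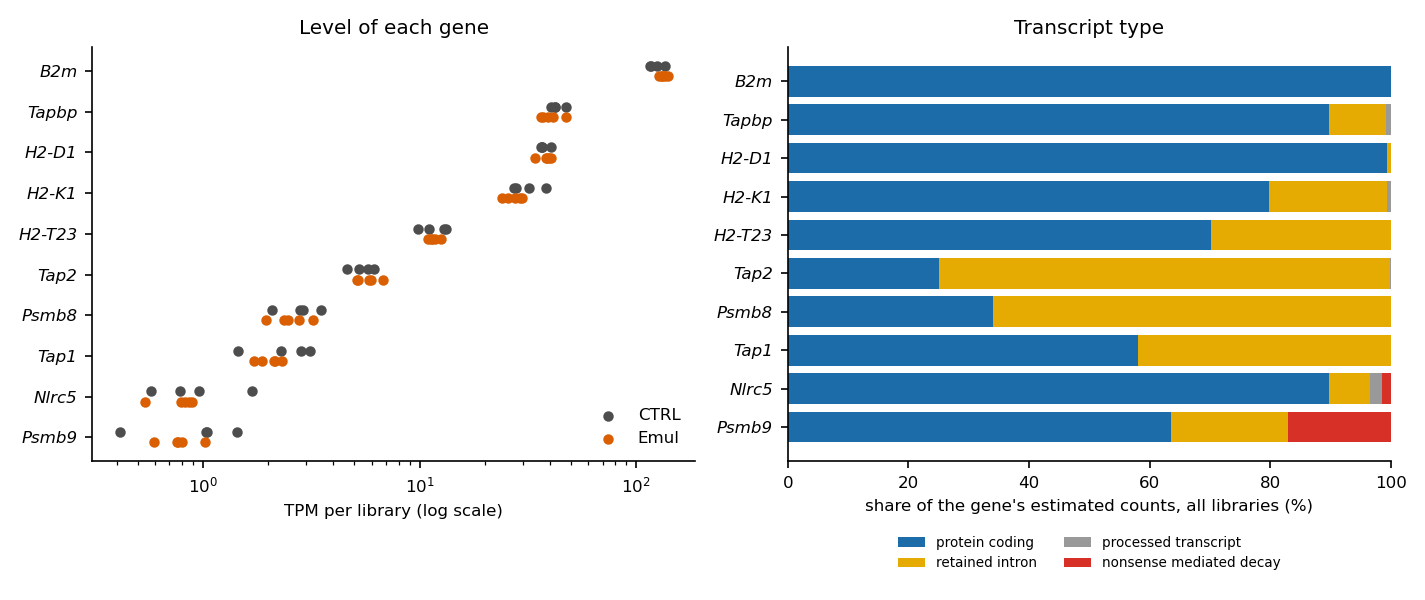
Left, TPM of each gene in the 4 CTRL and 5 Emul libraries on a log axis, ordered by median. Right, the share of each gene's estimated counts by annotated transcript type, summed over all libraries (%). B2m is the most abundant and wholly coding, and most counts of Tap2 and Psmb8 were assigned to retained-intron transcripts.

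Within genes, 16 member transcripts passed the filter. H2-D1-201, a coding transcript with 36.4% of the counts of H2-D1, had log2 CPM values of 3.58, 3.58, 3.52 and 3.55 in CTRL 1 to 4. In Emul 1 to 5 they were 4.01, 4.03, 3.70, 3.86 and 3.62. All Emul libraries were above all CTRL libraries, which held for 2.06% of the 39840 transcripts tested. Its log2 fold change was 0.29 ± 0.099 (SE), with an unadjusted p-value in limma of 0.015, an adjusted p-value of 0.38 and an exact permutation p = 0.024. The other main transcript, H2-D1-202 with 62.9% of the counts, was at 0.024 ± 0.099 (SE), and the share of H2-D1 counts on H2-D1-201 overlapped between the groups (30.4% to 35.9% in CTRL and 32.1% to 40.5% in Emul). Besides H2-D1-201, only B2m-201 had an unadjusted p-value under 0.05 among the 16, against 10.8% of all transcripts. At an adjusted p-value under 0.05 in limma the count over all transcripts was 0 (0%), with 4297 under an unadjusted 0.05.

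The libraries did not carry these genes evenly. CTRL 4 had the highest value of its group in 8 of the 10 members and CTRL 3 the lowest in 6. Emul 2 was the highest of its group in 6, and Emul 3 the lowest in 4. CTRL 4 also had the highest summed level of 12 microglial genes (410 TPM), with CTRL 2 and CTRL 3 both at 405 TPM. Emul 2 was at 365 TPM, within the Emul range of 358 to 406 TPM.

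Genes of the same pathway outside the member list went both ways. Of 54 tested in 6 lists (other heavy chains, loading and trimming factors, proteasome subunits, regulators and interferon receptors), 5 were higher and 5 lower at an unadjusted p-value under 0.05 (6.84% and 8.99% of all genes), none passed the adjusted threshold in limma, and the median log2 fold change was 0.032, against 0.0015 over all genes. Among 15 other heavy chains, H2-Q7 was at 0.32 ± 0.11 (SE), with all Emul libraries above all CTRL libraries, and H2-M3, which presents formylated peptides, at 0.40 ± 0.16 (SE). H2-T24 and Fcgrt, the heavy chain of the neonatal Fc receptor and a partner of B2m, had values of -0.22 ± 0.091 (SE) and -0.13 ± 0.052 (SE). H2-Q7 and H2-T24 belong to families of close copies, so their values are uncertain too.

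Among 10 loading and trimming factors, 3 chaperones of the endoplasmic reticulum were higher at an unadjusted p-value under 0.05 and 0 were lower, against 6.84% and 8.99% of all genes. Calr, the calreticulin of the peptide loading complex, had log2 CPM values of 8.58, 8.43, 8.47 and 8.49 in CTRL 1 to 4. Those of Emul 1 to 5 were 8.62, 8.63, 8.54, 8.64 and 8.57. CTRL 1 alone overlapped with Emul, and the log2 fold change was 0.11 ± 0.035 (SE), with an adjusted p-value in limma of 0.18. Pdia3, the disulfide isomerase paired with tapasin, was at 0.074 ± 0.031 (SE). Hspa5, the general chaperone BiP, was at 0.15 ± 0.034 (SE) with all Emul libraries above all CTRL libraries and an adjusted p-value in limma of 0.10. The class I-specific trimming peptidase Erap1 (-0.0065 ± 0.067, SE) and the editor Tapbpl (0.10 ± 0.072, SE) were not past the unadjusted threshold. The constitutive subunits Psmb5, Psmb6 and Psmb7 and the inducible Psmb10 ranged from -0.030 to 0.060 on the log2 scale, none past it.

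Of 15 regulators, 0 were higher and 2 lower at an unadjusted p-value under 0.05, against the same 6.84% and 8.99%. Irf1, an interferon-induced activator of class I promoters, had log2 CPM values of 2.70, 2.87, 2.66 and 2.89 in CTRL 1 to 4. Those of Emul 1 to 5 were 2.57, 2.69, 2.55, 2.31 and 2.57. Emul 2 alone reached into the CTRL values, and the log2 fold change was -0.26 ± 0.092 (SE), with an adjusted p-value in limma of 0.21. Rfxank, a subunit of the RFX complex that binds the X box, was at -0.26 ± 0.084 (SE). Its partner Rfx5 (-0.034 ± 0.037, SE) was not past the threshold. Of 7 interferon receptor and kinase genes, Ifnar1, a chain of the type I interferon receptor, was at -0.11 ± 0.041 (SE).

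Of 21 interferon-stimulated genes tested, 20 had a log2 fold change above 0, with a median of 0.26, against 50.8% of all genes above 0. At an unadjusted p-value under 0.05 only 2 were higher (6.84% of all genes), Rsad2, an antiviral enzyme (0.59 ± 0.18, SE), and Ifit3 (0.47 ± 0.21, SE). The summed level of the list overlapped, at 145 to 176 TPM in CTRL and 155 to 189 TPM in Emul. Emul 2 was the highest Emul library in that sum, in Rsad2 and in Ifit3. For Ifit3 it was at 3.66 log2 CPM, with the other Emul libraries at 2.53 to 3.22. Genes of this list can vary together, so 20 of 21 is not a count of separate observations. Of 6 class II genes, H2-Eb1 (0.44 ± 0.16, SE) and Cd74, the invariant chain (0.41 ± 0.18, SE), were higher at an unadjusted p-value under 0.05 (again 6.84% of all genes), and none of either list passed the adjusted threshold in limma.

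Genes of the cells known to carry class I were examined beside B2m. Of 12 microglial genes, 0 had an unadjusted p-value under 0.05 (15.8% of all genes) and 8 were above 0 (50.8% of all genes). Their median log2 fold change was 0.027, and the summed level was 372 to 410 TPM in CTRL and 358 to 406 TPM in Emul. Cx3cr1 was at -0.038 ± 0.048 (SE) and P2ry12 at 0.099 ± 0.055 (SE). Of 10 endothelial genes, 0 were higher and 1 lower at that threshold, against 6.84% and 8.99% of all genes. Their median was -0.028, and the summed level was 267 to 309 TPM in CTRL and 257 to 274 TPM in Emul, with Cldn5 at -0.051 ± 0.086 (SE). Of 5 border macrophage genes tested none passed the unadjusted threshold, with Mrc1 at 0.18 ± 0.11 (SE) and a summed level of 8.53 to 11.8 TPM in CTRL and 8.63 to 11.7 TPM in Emul.

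Lymphocyte genes were scarce. The 6 T cell genes summed to 6.19 to 8.07 TPM in CTRL and 5.80 to 8.56 TPM in Emul, and 2 of them passed the filter. These were Cd3d, with mean log2 CPM of 0.32 in CTRL and 0.28 in Emul, and Trac, with 0.12 and 0.38. Cd3e ranged from -3.04 to -1.56 log2 CPM in CTRL and from -2.45 to -1.39 in Emul, and Cd8a from -1.08 to -0.30 and from -0.91 to -0.26, both under the filter. None of the 4 natural killer cell genes passed the filter, and 1 of them was at 0 in all libraries. The 4 B cell genes summed to at most 1.41 TPM in CTRL and 3.85 TPM in Emul. Blood was present in all libraries, with 5 erythroid genes summing to 1021 to 2773 TPM in CTRL and 1576 to 3308 TPM in Emul. All 5 had a log2 fold change above 0 (50.8% of all genes), with a median of 0.44, and 0 had an unadjusted p-value under 0.05 in limma (15.8% of all genes). The part of blood cells in the level of B2m was not tested.

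The log2 CPM table deposited by the authors held 8 of the 10 genes among its 14592 named rows, without Psmb8 and Psmb9. In it the mean of B2m was 5.58 ± 0.13 for CTRL (SD, n = 4) and 5.79 ± 0.089 for Emul (SD, n = 5), and the difference was 0.21 ± 0.067 on the log2 scale (SE), with an adjusted p-value in limma of 0.24. H2-D1 was at 0.13 and H2-K1 at -0.15 on the same scale, and neither was past an unadjusted p-value under 0.05. Tapbp was at 4.51 in CTRL in that table, below every value of the gene sums, in which 41.8% of its counts were on the coding transcript Tapbp-206.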

How the data were processed

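The study's RNAseq libraries were strand-specific, enriched for mRNA and sequenced in pairs. The authors quantified transcripts with kallisto on mm10 and deposited, for each library, estimated counts, which need not be whole, and TPM values. A table of log2 CPM by gene symbol was deposited too. How its transcripts were summed to genes and the annotation release are not given in the sources used here. The submitters' processing notes name FastQC 0.11.9, kallisto 0.46.1 and edgeR 3.40.1.

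Transcripts were matched to GENCODE M21 by Ensembl identifier (97.8% of 119414), counts on unmatched transcripts (1.20% to 1.27%) were left out, and estimated counts were summed per gene. The filter on low counts asked for a CPM above 1 in 4 or more libraries, and after TMM scaling limma-voom was fitted to Emul against CTRL over all 15340 genes, with Benjamini-Hochberg adjustment (R 4.3.3, limma 3.58.1, edgeR 4.0.16). Counts were rounded for edgeR and for DESeq2 1.42.0 only. Log2 CPM used a prior count of 2. For single genes a two-sided exact permutation test enumerated the 126 splits of 9 libraries into 4 and 5, with 0.0079 as its smallest possible p-value. On simulated counts for these 15340 genes, limma-voom recovered 81.5% of 200 genes changed 1.5-fold at an adjusted p-value under 0.05, with 4.12% false calls. Smaller changes, such as the 1.15-fold difference of B2m, were not simulated, so the recovery does not apply to them.

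Members and gene lists were chosen with earlier results of these data known. Named were all 10 members, up to 4 genes per pathway list with the smallest p-values under 0.05, and fixed genes of the pathway and of cell types (Psmb10, Psmb5, Psmb6, Psmb7, Irf1, Rfx5, Erap1, Tapbpl, Calr, Cx3cr1, P2ry12, Cldn5, Cd3e, Cd8a, Mrc1). Of the genes the naming rule covers, 1 is not reported here. Mbp, Gfap, Stmn2, Slc32a1 and the TPM ratios were chosen after their values were seen. Stretches shared between genes were counted over transcripts as sequences of 31 bases, and promoter windows are from RefSeq (GRCm38.p6). The alternatives were other tests, scalings, filters and summaries, the authors' table, log2 of TPM plus 0.1 or 1, the replicate number as a block, and each library left out. No batch of the libraries is given, and p-values measure the spread between litters. Same-group libraries differed by far more than sampling noise, so each was counted as a library of its own.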

Additional observations from a re-analysis of the deposited data

How the results depend on the processing

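B2m kept a log2 fold change above 0 in all 24 alternatives, from 0.11 to 0.27, and an unadjusted p-value under 0.05 in 22 of them. The exceptions were log2 of TPM plus 0.1 and plus 1, where the median of all genes moved to -0.099 and -0.091. Its adjusted p-value ran from 0.072 (DESeq2) to 0.35 (replicate block, log2 fold change 0.21), so no alternative gave a member an adjusted p-value under 0.05, and none did so at 0.10 in limma-voom. The count of members higher at an unadjusted p-value under 0.05 was 1 to 2 with each library left out, with 2 (B2m and H2-D1) without CTRL 4 and without Emul 3, and 0 with both TPM scales. The count with all Emul above all CTRL was 0 to 1 with each library left out, with 1 (B2m) without CTRL 4.

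Other members changed sign, with no p-value under 0.05 there, and the cause was not tested. H2-T23 was at -0.014 with log2 of TPM plus 0.1 or 1. Tap1 was at -0.12 with lengthScaledTPM, -0.15 with protein-coding transcripts, -0.099 in the authors' table, and -0.19 and -0.15 on the TPM scales, and Tap2 at -0.12 with protein-coding transcripts. Tapbp was at 0.00015 with edgeR, 0.0017 with DESeq2 and 0.048 in the authors' table. Psmb8 was at -0.0097 with edgeR, -0.0079 with DESeq2, -0.0042 with limma-trend, -0.023 with library size alone, -0.032 with lengthScaledTPM, -0.067 with the replicate block, and -0.13 and -0.099 on the TPM scales. With each library left out in turn, H2-K1 ran from -0.14 to 0.013, H2-T23 from -0.014 to 0.15, Tap1 from -0.11 to 0.17, Tapbp from -0.049 to 0.035, Nlrc5 from -0.20 to 0.058 and Psmb8 from -0.12 to 0.099. The difference between Emul and CTRL in B2m over the heavy chains was 0.20, 0.21 with protein-coding transcripts and 0.17 to 0.22 with each library left out, alternatives chosen after seeing the data. Over all genes, the count at an adjusted p-value under 0.05 was 18 in limma-voom, 33 in edgeR, 341 in DESeq2, 771 and 775 on the TPM scales and 1 with the replicate block.

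Replicate numbers did not pair the libraries, since same-numbered libraries correlated at -0.16, -0.015, 0.021 and -0.055 in their deviations from the group means. With at most 73 counts per library in Nlrc5, Psmb8 and Psmb9, counting error adds to the spread between litters in these genes. Psmb9 was tested only without the filter or with filterByExpr.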
